A study of Homo sapiens with 18 samples.

Results

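The 50 DNA repair genes described here cover nucleotide excision repair, base excision and single-strand break repair, mismatch repair, end joining, homologous recombination, break signalling and the Fanconi pathway. They were named by pathway, and a gene was measured where a probe set (a group of probes read as 1 value) carried its symbol and no other. Where a gene had more than 1, the brightest on average was taken. This gave 42 of the 50 genes, out of 22392 genes tested in all. ERCC5, ERCC6 and NHEJ1 had only probe sets that carry several symbols, and RBBP8, BRCA2, XRCC2, FANCA and FANCD2 were not analysed here. By pathway, 13 of 15 nucleotide excision genes, 6 of 6 base excision genes, 2 of 2 mismatch genes, 6 of 7 end joining genes, 11 of 14 recombination genes, 2 of 2 break signalling genes and 2 of 4 Fanconi genes were measured.

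The study asked what a prostate radiotherapy plan does to cells in the beam and to cells in distant organs, using a body-shaped phantom that held flasks of PNT1A cells. PNT1A is a single cell line, made from normal prostate epithelial cells of human origin by immortalisation with SV40, whose large T antigen binds the tumour suppressors p53 and RB, and all groups shared that background. The 6 groups of 3 arrays were controls (0 Gy), the prostate location in the beam axis (70 Gy), and 4 peripheral locations outside the field. These were the intestine at 15 cm and 0.43 Gy, the lung at 35 cm and 0.07 Gy, the thyroid at 52 cm and 0.03 Gy, and the brain at 74 cm and 0.03 Gy. RNA was taken 24 h after irradiation. Controls are untreated by their labels and sham-irradiated by the methods.

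Nucleotide excision repair cuts out a short stretch of DNA around a bulky lesion, base excision repair replaces single damaged bases and seals single-strand breaks, and mismatch repair corrects copying errors. Double-strand breaks, the lesion most tied to cell death after ionising radiation, are rejoined directly by end joining or copied from the sister chromatid by homologous recombination, while Fanconi proteins process crosslinks between strands. Several repair genes, DDB2, XPC and POLH among them, are known targets of p53, and several recombination genes are known to be transcribed with the S phase through E2F.

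Both factors bind short motifs that can be looked for by letter. The stretches shown were taken only from windows that held such a motif, whatever the gene did in the axis. RefSeq promoter windows (GRCh38.p14, from 250 bases before to 50 after the transcription start) matched 45 of the 50 genes with 68 windows. The decamer bound by p53, which is only part of a full p53 site, was found in 3 of these windows (4.41%). It was found in 6.63% of 35116 promoters of the same length. The E2F motifs TTTCCCGC and TTTGGCGC, read on both strands, were found in 7 windows (10.3%) and in 2.27% of all promoters. The cell cycle motif TTTGAA (the CHR element), on both strands, was found in 7 windows (10.3%) and in 15.2% of all promoters. Stretches are written 5′ to 3′ on the gene's strand with the p53 decamers and E2F motifs in capitals, and positions count from +1 at the start site.
DDB2, chr11:47214854-47215003, + strand: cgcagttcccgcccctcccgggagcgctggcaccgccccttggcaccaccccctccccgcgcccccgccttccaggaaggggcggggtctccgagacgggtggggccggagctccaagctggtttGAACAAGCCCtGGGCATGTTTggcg
BLM, chr15:90717226-90717375, + strand: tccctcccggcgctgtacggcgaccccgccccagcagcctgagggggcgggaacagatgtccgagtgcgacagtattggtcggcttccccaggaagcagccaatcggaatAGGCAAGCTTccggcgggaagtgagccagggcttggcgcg
UNG, chr12:109097609-109097638, + strand: ccacagccacagccaGGGCTAGCCTcgccg
XPC, chr3:14178732-14178851, - strand: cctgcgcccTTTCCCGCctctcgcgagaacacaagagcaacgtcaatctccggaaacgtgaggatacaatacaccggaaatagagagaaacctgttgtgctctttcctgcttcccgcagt
LIG1, chr19:48170375-48170494, - strand: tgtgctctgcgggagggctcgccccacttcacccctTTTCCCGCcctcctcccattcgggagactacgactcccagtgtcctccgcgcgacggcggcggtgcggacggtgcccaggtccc
XRCC6, chr22:41621315-41621344, + strand: tgtccaagttggtcgcttccctGCGCCAAA
The DDB2 window held 2 p53 decamers, at +6 and +17, 1 base apart, and the first shares 3 letters with a TTTGAA motif. A single decamer, and so not a full p53 site, stood at -10 in BLM and at +28 in UNG. The E2F motif stood at -241 in XPC and at -114 in LIG1, and on the opposite strand at +43 in XRCC6. The other windows with an E2F motif belonged to FANCC, FANCD2, MSH6 and XRCC2. As described next, DDB2, BLM, XPC and LIG1 were higher in the axis, XRCC6 was lower, and UNG, FANCC and MSH6 passed no threshold. Of the measured genes with a window, 13 were higher at the adjusted p alone, 6 were lower and 18 did not pass. The p53 decamer stood in 2, 0 and 1 of these, and the E2F motif in 2, 1 and 2. Whether a motif went with a direction was not tested. Of the genes past both thresholds in the axis, ERCC2, ERCC4, EXO1 and RAD51C held no p53 decamer or E2F motif. FANCI had no window. A match describes letters in a window only, and says nothing of whether a factor was bound.

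Values are log2 intensities after the authors' RMA normalization, so a difference of 1 is a 2-fold change, and levels of different probe sets are not set against each other. The median gene stood between 4.07 and 4.22 on each array, and within groups arrays correlated at 0.992 or more. A gene was called where limma, fitted on all 18 arrays, gave a Benjamini-Hochberg adjusted p under 0.05 over all genes and the fold change exceeded 1.5. The cell cycle inhibitor CDKN1A, a p53 target, stood at 6.28 ± 0.049 in controls and was called higher in the axis, at 7.95 ± 0.064 (SD, 3 arrays each). Markers were read beside the repair genes, and TP63 was not analysed here. The log2 summed level of 8 epithelial markers ranged from 8.32 to 8.36 in controls and from 7.83 to 8.02 in the axis, with KRT5 and KRT19 called lower. That of 4 fibroblast markers ranged from 8.72 to 8.88 and from 7.09 to 7.19, with COL1A1 called lower (-1.82, median of the 4 -0.09). That of 4 leukocyte markers ranged from 7.82 to 7.90 and from 7.37 to 7.70, that of 3 endothelial markers from 4.907 to 4.996 and from 4.97 to 5.12, and none of these 7 was called. The part of these shifts in the repair gene differences was not tested. All cultures were of the single line PNT1A, so the marker sums are not read as numbers of fibroblasts, leukocytes or endothelial cells. In extracts of whole cultures, fewer cells that express a gene and less of its RNA per cell cannot be told apart.

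In the axis, nucleotide excision repair genes moved in both directions, the 5 of 11 recombination genes that passed the adjusted p were higher, and the 2 of 6 base excision genes that passed it, APEX1 and PARP1, were lower. At both thresholds 7 of the 42 genes were higher (16.7%): DDB2, XPC, ERCC4, EXO1, RAD51C, BLM and FANCI. Of all genes tested 4.39% were higher, and of the 11196 genes brighter than the median gene, where 41 of the 42 repair genes lie, 6.98%. ERCC2 alone was lower (2.38% of the 42, against 2.60% of all genes and 4.97% of the brighter ones). With no fold minimum, 14 repair genes were higher (33.3%) and 8 were lower (19.0%), against 11.2% and 9.18% of all genes, and 18.2% and 16.8% of the brighter ones. All 3 axis arrays lay above all 3 controls for 15 repair genes (35.7%, all genes 18.1%, brighter genes 26.3%) and below them for 11 (26.2%, all genes 15.7%, brighter genes 25.7%). Beside the brighter genes, the shares of repair genes that were lower were thus close to the background with no fold minimum, and smaller with it. The median difference over the 42 genes was 0.06, beside 0.0070 over all genes.

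**Figure D1:**
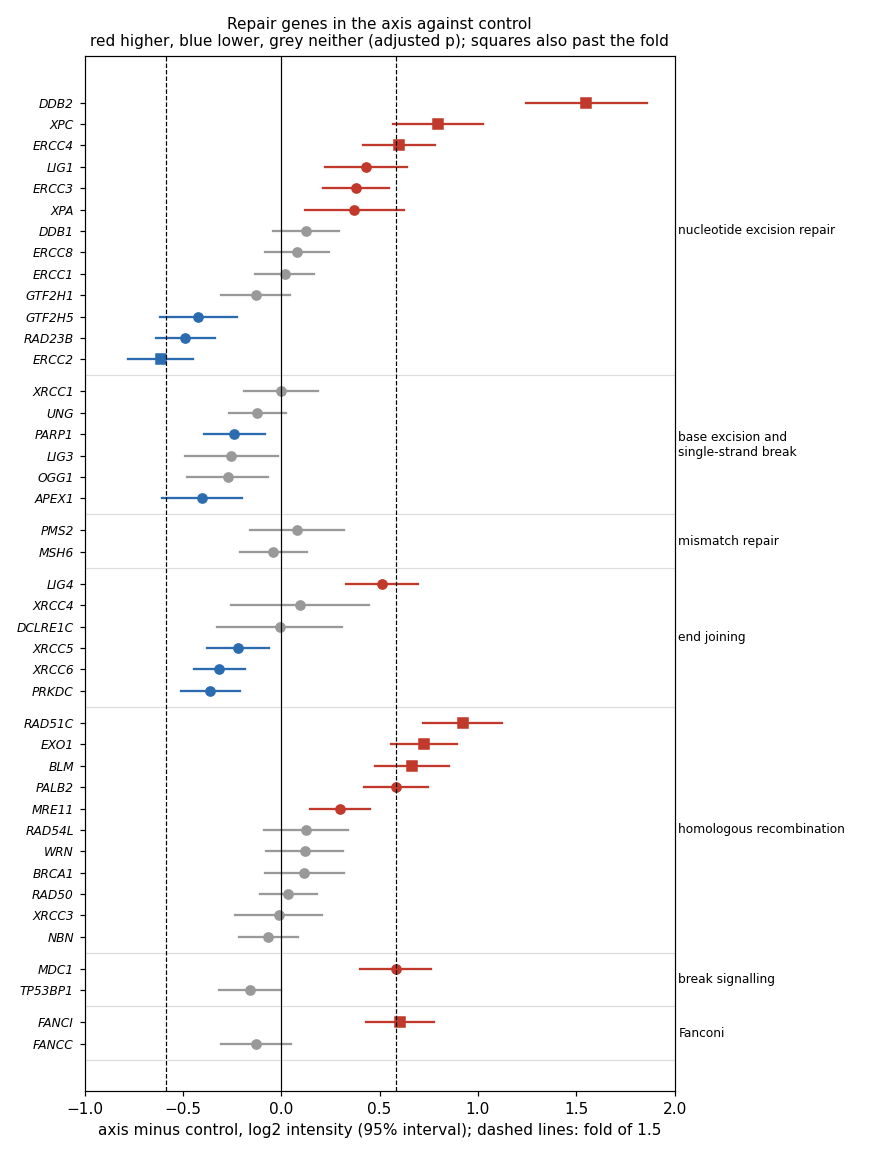
Difference between axis and control (log2 intensity, limma estimate with 95% interval) for the 42 measured repair genes, grouped by pathway. Red genes were higher and blue genes lower at an adjusted p under 0.05, squares also passed the fold change of 1.5 (dashed lines), and DDB2 stands farthest from 0, at 1.55.

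Among the damage sensors of nucleotide excision repair, DDB2 had the highest difference of the 42 genes and XPC also rose. DDB2, which finds ultraviolet lesions in chromatin as part of a ubiquitin ligase, read 5.73, 5.89 and 5.68 on the control arrays and 7.25, 7.22 and 7.48 on the axis arrays. The groups were far apart, and DDB2 rose 2.93-fold (log2 difference 1.55, standard error 0.15, limma adjusted p = 2.31e-07). Its partner DDB1, the adaptor of the same ligase, had a difference of 0.13 with a 95% interval from -0.04 to 0.29 and overlapping arrays. XPC, which recognises distorted helices, read 4.54, 4.71 and 4.54 in controls and 5.33, 5.35 and 5.50 in the axis. It rose 1.74-fold (0.80, standard error 0.11, limma adjusted p = 1.91e-05), with no overlap. RAD23B, which stabilises XPC, went the other way: it read 10.13, 10.16 and 10.20 in controls and 9.79, 9.62 and 9.60 in the axis, a fall of 0.49 on the log2 scale (limma adjusted p = 4.03e-05) that did not reach the fold minimum. ERCC8, which serves repair where transcription has stalled, had a difference of 0.08 and overlapping arrays.

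The opening complex TFIIH held members that moved apart. ERCC2, its XPD helicase, read 8.15, 8.04 and 8.12 in controls and 7.43, 7.54 and 7.50 in the axis, and fell 1.53-fold (-0.61, standard error 0.078, limma adjusted p = 8.37e-06). The call lay close to the fold minimum, and without axis replicate 1 the difference was -0.58 and fell short of it. GTF2H5, its smallest subunit, also fell (-0.42, limma adjusted p = 0.00230), while ERCC3, its other helicase, rose (0.38, limma adjusted p = 0.00144), neither past the fold minimum. Both had groups that did not overlap. GTF2H1 had a difference of -0.13 with overlapping arrays.

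Among the genes that verify, cut and seal, ERCC4, the nuclease subunit XPF, read 6.91, 6.70 and 7.08 in controls and 7.51, 7.59 and 7.39 in the axis. It rose 1.52-fold (0.60, standard error 0.087, limma adjusted p = 3.77e-05), and the control arrays were spread more widely than those of the axis. Without control replicate 2 its difference was 0.50 and without axis replicate 2 it was 0.55, both short of the fold minimum. Its partner ERCC1 stood at 0.02 with a 95% interval from -0.13 to 0.17. LIG1, the ligase of long patches and replication, rose by 0.43 (limma adjusted p = 0.00316). XPA, the scaffold that verifies the lesion, rose by 0.37 (limma adjusted p = 0.0311). Its pass of the adjusted p was lost when any single array but control replicate 1 was left out (adjusted p from 0.0612 to 0.129). The 3 arrays of XPA and LIG1 in the axis lay above all controls.

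**Figure D2:**
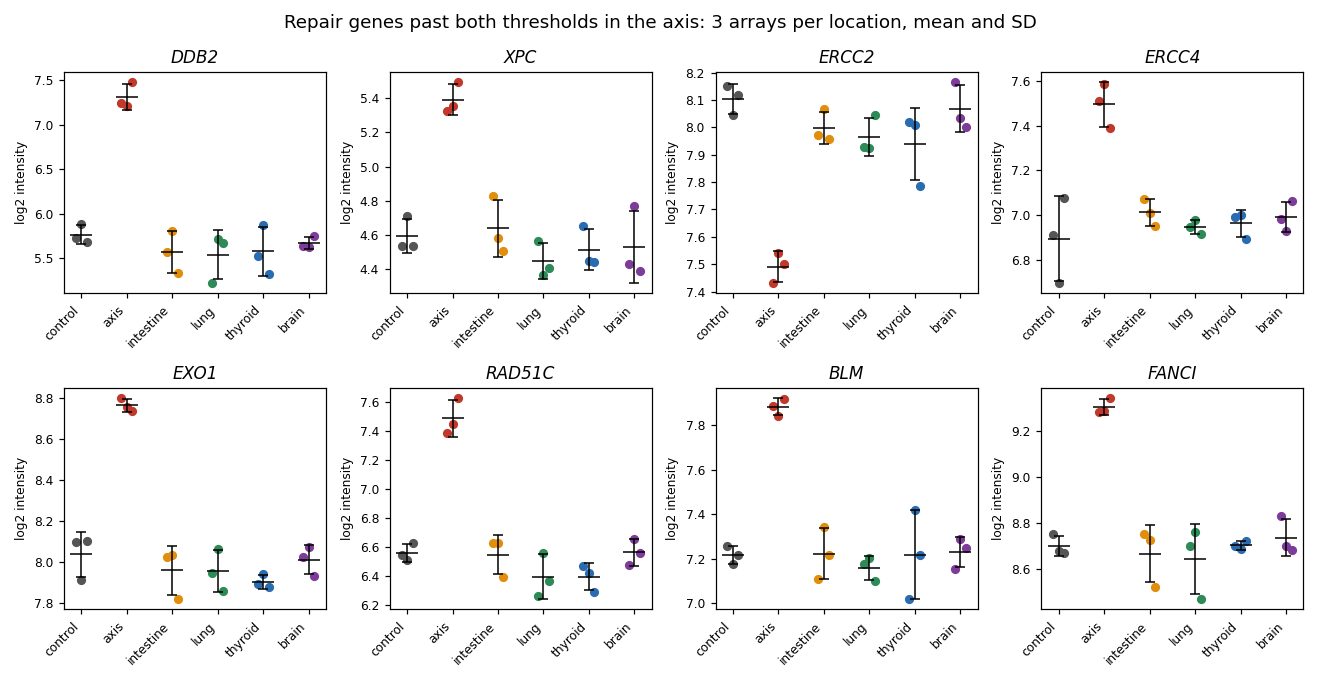
Log2 intensity on each of the 18 arrays for the 8 repair genes past both thresholds in the axis, with the mean and SD of the 3 arrays of each location (each panel has its own scale). The axis arrays lie above all other arrays in 7 panels and below all others for ERCC2.

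Of the 11 recombination genes, 5 passed the adjusted p, and these were higher. RAD51C, which acts in recombination and whose loss is known in Fanconi anaemia and hereditary ovarian cancer, read 6.54, 6.51 and 6.63 in controls and 7.38, 7.44 and 7.62 in the axis. It rose 1.89-fold (0.92, standard error 0.095, limma adjusted p = 6.43e-07). XRCC3, which forms a complex with RAD51C, stood at -0.01 with a 95% interval from -0.23 to 0.21, so a change beyond 1.5-fold lay outside it. EXO1, an exonuclease that lengthens resected ends and also serves mismatch repair, read 8.10, 7.91 and 8.10 in controls and 8.80, 8.76 and 8.73 in the axis, a 1.65-fold rise (0.73, standard error 0.081, limma adjusted p = 1.67e-06). BLM, the Bloom syndrome helicase, read 7.26, 7.18 and 7.22 in controls and 7.89, 7.84 and 7.92 in the axis, a 1.59-fold rise (0.67, standard error 0.089, limma adjusted p = 1.57e-05). For all 3 rising genes the groups were separated by more than the range within either.

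The other recombination genes gave smaller values. PALB2, which joins BRCA1 to BRCA2, rose by 0.58 (limma adjusted p = 1.58e-05) and lay just below the fold minimum of 0.585 on the log2 scale. Without control replicate 3 or axis replicate 3 it stood at 0.62 and passed. MRE11, the nuclease of the MRN complex that first binds a break, rose by 0.30 (limma adjusted p = 0.00491). Its partners RAD50 and NBN stood at 0.04 and -0.07, with overlapping arrays. RAD54L, a motor protein of recombination that moves along DNA, had axis arrays of 6.78, 6.82 and 6.81 above controls of 6.56, 6.75 and 6.73, yet its difference of 0.13 did not pass (limma adjusted p = 0.494). BRCA1 and the helicase WRN stood at 0.12 each, and their arrays overlapped with controls.

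In break signalling, MDC1, the scaffold that binds phosphorylated H2AX at breaks, read 6.92, 6.92 and 6.64 in controls and 7.32, 7.47 and 7.43 in the axis. It rose by 0.58 (limma adjusted p = 4.90e-05), just short of the fold minimum, and passed it at 0.63 without control replicate 1 or control replicate 2 and at 0.62 without axis replicate 1. Over the 13 probe sets of MDC1 the difference ran from 0.22 to 0.63, all above 0, some of them with identical values. TP53BP1, which holds ends for joining and limits resection, stood at -0.16 with axis arrays below all controls (limma adjusted p = 0.167). In the Fanconi pathway, FANCI, which is clamped on DNA with FANCD2, read 8.75, 8.68 and 8.67 in controls and 9.28, 9.29 and 9.34 in the axis. FANCI rose 1.52-fold (0.60, standard error 0.083, limma adjusted p = 2.00e-05), and without axis replicate 3 its 0.58 fell short of the fold minimum. FANCC, of the core complex, stood at -0.13 with overlapping arrays.

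Of the 6 end joining genes measured, 3 fell and 1 rose. XRCC6 (Ku70), which with XRCC5 (Ku80) encircles a broken end, read 8.93, 8.89 and 8.94 in controls and 8.56, 8.69 and 8.57 in the axis, a fall of 0.31 (limma adjusted p = 0.000945). PRKDC, the kinase DNA-PKcs that Ku recruits, read 9.30, 9.40 and 9.41 in controls and 8.984, 8.999 and 9.042 in the axis, a fall of 0.36 (limma adjusted p = 0.000908). XRCC5 fell by 0.22 (limma adjusted p = 0.0464). Its pass of the adjusted p was lost without any single array but axis replicate 1 (adjusted p from 0.0605 to 0.184). The axis arrays of these 3 genes lay below all controls, and none reached the fold minimum. LIG4, the ligase that closes the break, went up: its arrays read 4.87, 4.73 and 4.70 in controls and 5.34, 5.22 and 5.27 in the axis, a rise of 0.51 (limma adjusted p = 0.000202). Its cofactor XRCC4 stood at 0.09 with the widest error of the 42 genes (standard error 0.17), and the nuclease DCLRE1C (Artemis) at -0.01 (95% interval -0.33 to 0.31).

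All 6 base excision genes had axis means below the control means, as did 48.2% of all genes, and 2 of the 6 passed the adjusted p. Of the 14 further base excision genes measured, given below, 9 stood above the control mean and 5 below, with a median difference of 0.16. APEX1, the nuclease that cuts at sites without a base, read 9.006, 9.005 and 8.958 in controls and 8.69, 8.69 and 8.38 in the axis, and fell by 0.40 (limma adjusted p = 0.00462). PARP1, which marks strand breaks with poly(ADP-ribose), fell by 0.24 (limma adjusted p = 0.0266). Its pass of the adjusted p was lost without control replicate 1 or 3 or without axis replicate 1 or 3 (adjusted p from 0.0664 to 0.134). The glycosylase OGG1 and the ligase LIG3 had axis arrays below all controls, at -0.27 (limma adjusted p = 0.0590) and -0.25 (limma adjusted p = 0.140). The uracil glycosylase UNG stood at -0.12 and the scaffold XRCC1 at -0.0017. In mismatch repair, MSH6 and PMS2 stood at -0.04 and 0.08, their arrays overlapped with controls, and their 95% intervals (-0.21 to 0.13 and -0.16 to 0.32) lay within a 1.5-fold change.

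The 3 genes on probe sets with several symbols are given apart, since the other gene named there can contribute. The probe set of ERCC5, the second nuclease of nucleotide excision repair, which is shared with BIVM, fell by 0.41 in the axis (limma adjusted p = 0.00414). That of NHEJ1, shared with SLC23A3, fell by 0.34 (limma adjusted p = 0.00380), and that of ERCC6, shared with PGBD3, stood at 0.09 (limma adjusted p = 0.585).

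Of 108 further repair genes listed by pathway, 96 were measured, and in the axis 25 were higher and 12 lower at the adjusted p, of which 3 and 2 also passed the fold minimum. These are shares of 26.0% and 12.5% (all genes 11.2% and 9.18%, brighter genes 18.2% and 16.8%). With the fold minimum they are 3.12% and 2.08% (all genes 4.39% and 2.60%, brighter genes 6.98% and 4.97%). POLH, the polymerase that copies past ultraviolet lesions, read 7.32, 7.24 and 7.41 in controls and 9.04, 9.11 and 9.30 in the axis, a 3.55-fold rise. POLB, the gap-filling polymerase of base excision repair, rose 1.75-fold and APLF, a break repair factor that binds poly(ADP-ribose), 1.96-fold, with groups that did not overlap. CUL4A, the scaffold of the DDB1 and DDB2 ligase, fell 1.75-fold, from 7.80, 7.60 and 8.02 in controls to 7.006, 6.999 and 7.002 in the axis. GTF2H2, a TFIIH subunit with near-identical copies that probes may not separate, fell 1.59-fold. At the adjusted p alone, 5 of 17 further recombination genes were higher and 0 lower, 3 of 4 end joining genes were higher and 0 lower, and 8 of 22 nucleotide excision genes were higher and 4 lower. Of the others, 4 of 14 base excision genes were higher and 1 lower, 2 of 15 Fanconi genes were higher and 2 lower, 0 of 11 break signalling genes were higher and 4 lower, 3 of 10 translesion and direct reversal genes were higher and 1 lower, and none of the 3 mismatch genes passed.

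Genes of proliferation and p53 feedback were read beside these values. Of 25 proliferation genes 4 were called higher (E2F1, CDC6, CCNE2 and TYMS) and 2 lower (PLK1 and CCNB1), beside 4.39% and 2.60% of all genes. At the adjusted p alone 7 of the 25 were higher and 6 lower, while MKI67 stood at 0.07 (limma adjusted p = 0.591). The summed level of the 25 lay between 13.64 and 13.74 in controls and between 13.70 and 13.77 in the axis. These ranges overlapped, although single genes moved in both directions. All 8 genes of p53 feedback were called higher, with a summed level of 9.64 to 9.79 in controls and 11.62 to 11.73 in the axis. The part of both lists in the repair gene differences was not tested.

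Seen by pathway over the 6 locations, the axis stood apart for some pathways only. For each array the median was taken over a pathway's genes after subtracting each gene's mean over all arrays, as a description with no test. The 11 recombination genes gave 0.25 to 0.27 on the axis arrays and -0.15 to 0.09 on the 15 other arrays. The 13 nucleotide excision genes gave 0.14 to 0.20 in the axis and -0.11 to 0.04 elsewhere, although 3 of them fell. Base excision genes gave -0.14 to -0.01 in the axis and 0.08 to 0.12 in controls. The 12 peripheral arrays, at -0.06 to 0.06, overlapped with the axis and also lay below all controls. End joining genes in the axis (-0.16 to 0.06) overlapped with controls (0.03 to 0.11), as did the pair of mismatch genes. The break signalling and Fanconi medians are each of 1 gene that rose (MDC1 and FANCI) and 1 that passed no threshold (TP53BP1 and FANCC). The same median over all genes stayed between -0.04 and 0.02 on all 18 arrays.

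**Figure D3:**
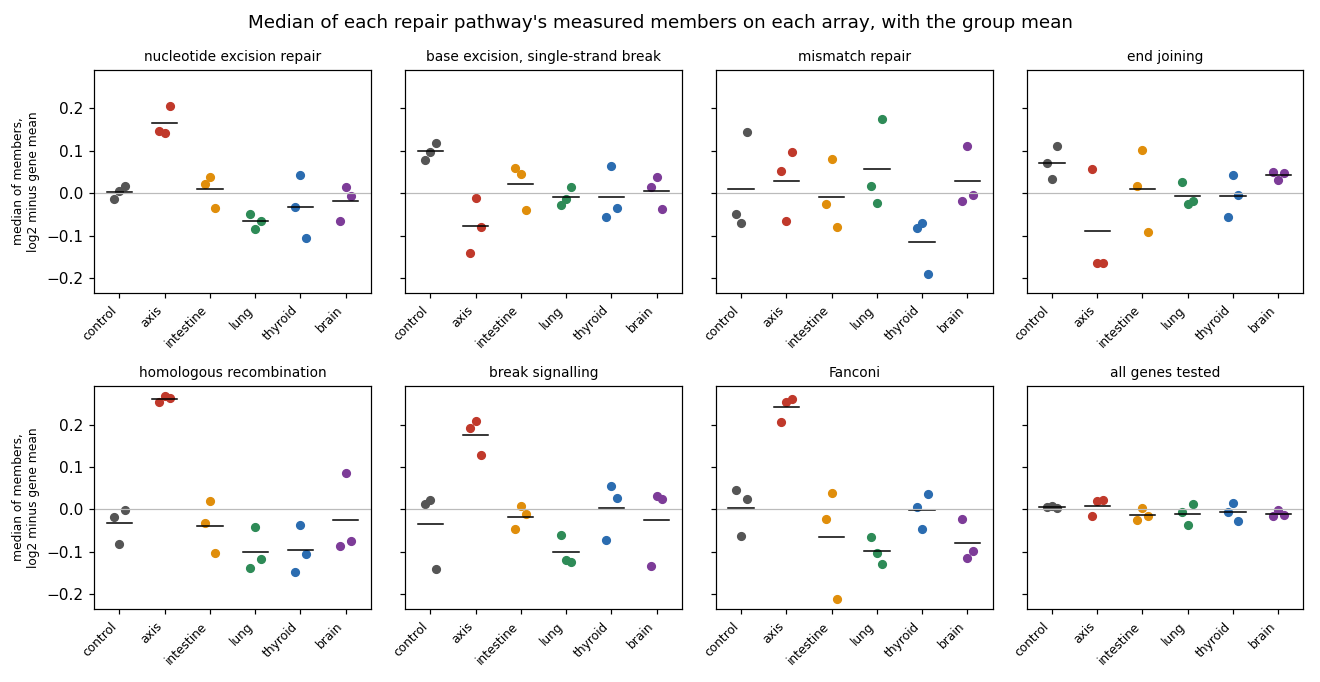
Median of each pathway's measured genes on each array (log2 intensity minus the gene's mean over all arrays), with lines at the mean of the 3 arrays of each location and all genes tested in the last panel. Axis arrays stand above the other 15 for nucleotide excision repair, recombination, break signalling and Fanconi genes (the last pathways with 2 genes each, 1 of which rose). For base excision genes they reach the lowest values but overlap with peripheral arrays.

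A comparison of the axis with the mean of the 4 peripheral locations leaves the control arrays out of the difference, although they enter the estimate of the spread. DDB2 (1.73), RAD51C (1.01), XPC (0.86), EXO1 (0.81), BLM (0.68) and FANCI (0.62) passed both thresholds as higher. They were 6 of 42 genes (14.3%), against 4.85% of all genes and 7.82% of the brighter ones. None was lower past the fold minimum, against 2.27% of all genes and 4.38% of the brighter ones. ERCC2 stood at -0.50 and ERCC4 at 0.52 in that comparison, both past the adjusted p and short of the fold minimum. At the adjusted p alone 15 were higher (35.7%, all genes 15.8%, brighter genes 25.5%) and 7 lower (16.7%, all genes 10.4%, brighter genes 18.7%). RAD54L, at 0.35 (limma adjusted p = 0.00206), passed here and not against controls, while PARP1, at -0.15 (limma adjusted p = 0.0785), did not pass. The peripheral arrays of RAD54L were below the controls on average, as given next.

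At the 4 peripheral locations no repair gene passed, and no gene of the whole table did (0% in intestine, lung, thyroid and brain, and 0% for the 4 pooled, with limma). A moderated F over control and the 4 locations also called 0% of genes. At an unadjusted p under 0.05 the repair genes were 1 of 42 in intestine (all genes 3.23%), 2 in lung (3.63%), 4 in thyroid (4.02%), 2 in brain (3.58%) and 3 pooled (3.47%). The median standard error of a difference from control was 0.085. The 95% intervals of all 42 genes lay within a 1.5-fold change in lung and thyroid, and those of 41 did in intestine, where the exception was LIG3 (-0.62 to -0.15), and in brain, where it was DCLRE1C (-0.62 to 0.01). DDB2, the gene with the highest value in the axis, stood at -0.19, -0.23, -0.19 and -0.09 in intestine, lung, thyroid and brain, with arrays that overlapped with controls at each.

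**Figure D4:**
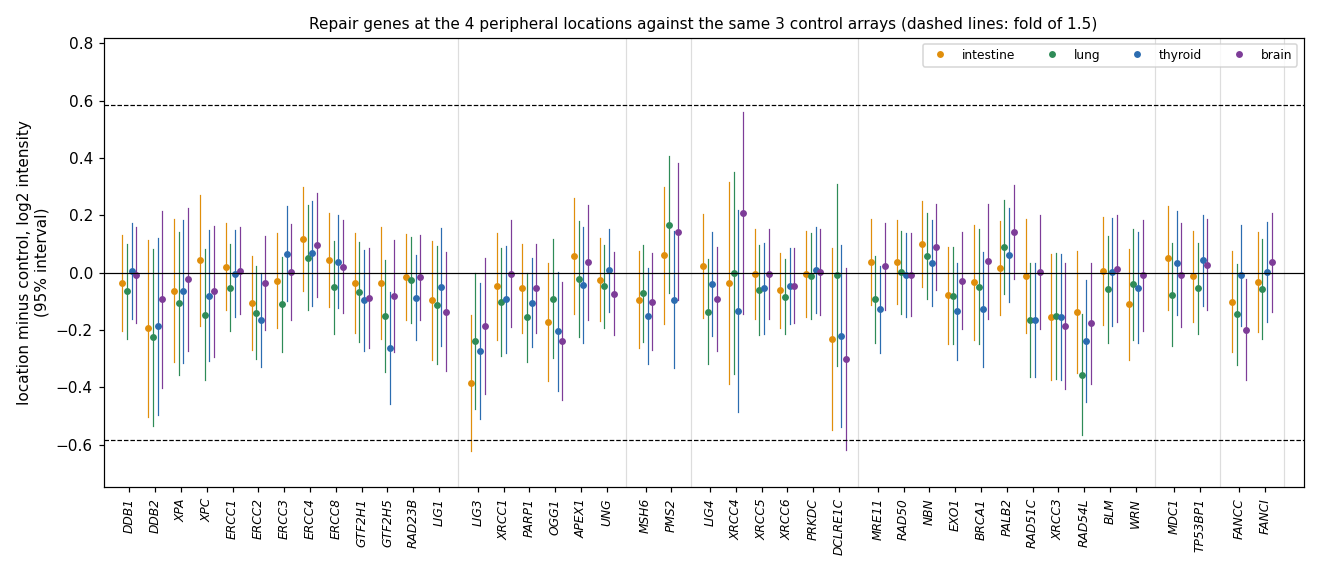
Difference from control (log2 intensity, limma estimate with 95% interval) of the 42 repair genes at intestine, lung, thyroid and brain, all against the same 3 control arrays. No estimate reaches the 1.5-fold lines, the lowest being LIG3 in intestine at -0.38.

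The peripheral genes nearest to a threshold belonged to several pathways. LIG3, which with XRCC1 seals single-strand breaks, read 5.53, 5.52 and 5.62 in controls, 5.15, 5.32 and 5.05 in intestine, 5.14, 5.54 and 5.27 in lung, 5.07, 5.52 and 5.26 in thyroid, and 5.45, 5.37 and 5.28 in brain. It lay below all controls in intestine, thyroid and brain and overlapped in lung, with differences of -0.38, -0.27, -0.19 and -0.24 for these 4 in that order and an unadjusted p of 0.00323, 0.0271, 0.114 and 0.0488 from limma (each adjusted p = 1.00). These differences share 3 control arrays, and in the axis LIG3 stood at -0.25. RAD54L read 6.56, 6.75 and 6.73 in controls and 6.36, 6.23 and 6.37 in lung, without overlap (unadjusted p = 0.00240, adjusted p = 1.00 from limma). In thyroid it stood at -0.24 with an array that overlapped with controls (unadjusted p = 0.0293, adjusted p = 1.00 from limma), and in intestine and brain its arrays overlapped as well.

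In thyroid ERCC2 stood at -0.17, with arrays of 8.02, 8.01 and 7.79 below controls of 8.15, 8.04 and 8.12 (unadjusted p = 0.0472, adjusted p = 1.00 from limma). GTF2H5 of TFIIH read 5.73, 5.61 and 5.77 in controls and 5.54, 5.51 and 5.26 in thyroid, a difference of -0.26 without overlap (unadjusted p = 0.0107, adjusted p = 1.00 from limma). OGG1 read 4.16, 4.35 and 4.24 in controls and 4.03, 4.04 and 3.97 in brain, a difference of -0.24 (unadjusted p = 0.0254, adjusted p = 1.00 from limma). It is the one measured repair gene dimmer than the median gene. FANCC read 6.24, 6.10 and 6.28 in controls and 6.03, 5.97 and 6.03 in brain, a difference of -0.20 (unadjusted p = 0.0299, adjusted p = 1.00 from limma). None of these differences passed after adjustment over all genes.

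Repair genes whose peripheral arrays did not overlap with controls lay below them in all but 1 case. Arrays lay below all controls for 5 genes in intestine (11.9%, all genes 4.66%), 6 in lung (14.3%, all genes 5.98%), 9 in thyroid (21.4%, all genes 6.40%) and 5 in brain (11.9%, all genes 5.74%). They lay above for NBN in intestine (2.38%, all genes 2.34%) and for no repair gene in lung, thyroid and brain (all genes 3.29%, 3.71% and 2.74%). Among the brighter genes the shares below controls were 5.02%, 8.68%, 9.47% and 6.22% in the same order of locations. These counts all rest on the same 3 control arrays. The thyroid genes were ERCC2, GTF2H5, RAD23B, LIG3, XRCC1, PARP1, MSH6, MRE11 and RAD51C, with differences from -0.27 to -0.09. In lung 37 of the 42 genes had a mean below controls, as did 57.1% of all genes and 69.8% of the brighter ones, and the count was 31 after quantile normalization and 30 after cyclic loess. The median difference of the 42 genes was -0.03 in intestine, -0.07 in lung, -0.06 in thyroid and -0.01 in brain, beside -0.02, -0.02, -0.01 and -0.02 over all genes and -0.03, -0.04, -0.04 and -0.02 over the brighter ones. After each array was centred on its median the values of the 42 genes were 0.0012 in intestine and 0.03 in brain, and without intestine replicate 3 that in intestine was 0.0026, so these had no stable direction. In lung the median was -0.03 after quantile normalization, in thyroid -0.03 after quantile normalization and -0.02 after cyclic loess.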

How the data were processed

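PNT1A cells of 6 groups were measured on 18 Affymetrix Human Gene 2.1 ST arrays, 3 per group as the labels give them. The authors corrected the background, normalised with RMA and summarised the probes, and the deposited values are log2 intensities. The submitters' processing notes name RMA and affy, and versions are not given in the sources used here. The labels and the methods name different labelling kits. No strip or scan day is given, so no batch was tested. The methods describe biological repeats, and p-values measure the spread between these samples. The number of arrays limits the precision.

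Of 53617 probe sets, 23866 carry 1 symbol in the array annotation, 1852 several and 27899 none listed. Probe sets with 1 symbol gave 22392 genes, and the brightest probe set on average was kept for the 630 genes that have more than 1. No filter on dim genes was applied. The model in limma 3.58.1 (R 4.3.3; lmFit, eBayes) had 1 mean per group and 12 residual degrees of freedom. P-values were adjusted by Benjamini-Hochberg over all genes, and calls needed an adjusted p under 0.05 with a change above 1.5-fold. Two-sided 95% intervals are from the same fit. Every repair gene could be named, and of the further repair lists up to 3 called genes per direction and list. CDKN1A and MKI67 were planned as checks, and the called proliferation and marker genes were named beyond that plan. The genes and lists were chosen with earlier results of these data known. The script was tested on simulated data. Of 15 pairs of an irradiated array and its same-numbered control, 1 deviated from its group mean together at a correlation over 0.1 (range -0.36 to 0.16). The numbers were therefore not taken as pairs. Pairing among the irradiated locations was not tested, although the axis was set against the mean of the 4 peripheral ones. Alternatives covered probe set choice, dim genes, scaling, the arrays fitted, a replicate block, the variance trend, array weights, thresholds and leaving out each array.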

Additional observations from a re-analysis of the deposited data

How the results depend on the processing

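Counts of called repair genes depended mainly on the fold minimum. In the axis, 7 higher genes became 14 with no fold minimum and 1 at a fold of 2, and 1 lower gene became 8, 0, and 2 when limma tested against a fold of 1.2. Leaving out 1 array gave 6 to 8 higher and 0 to 1 lower. Against the peripheral locations, 6 higher genes became 15 with no fold minimum, 2 at a fold of 2 and 11 against a fold of 1.2, and 6 to 8 without 1 array, while 0 lower became 7 and 2, with no fold minimum and against a fold of 1.2. Every alternative left 0 genes called at the peripheral locations. Of 418 values of single genes under the alternatives, 381 kept their direction and their side of the combined thresholds, 14 fell short, 23 newly passed and 0 reversed. The 22 genes compared were those past the adjusted p in the axis. Those short of the fold minimum thus newly passed by definition once it was dropped. The values that fell short include those of all called genes but DDB2 at the fold of 2. Settings that change only a threshold keep the estimate, so they could not reverse a direction. Read by the adjusted p alone, 32 of the 418 values lost it. Of these, 11 arose when the test was against a fold of 1.2, and 21 under other settings, all of XPA, PARP1 or XRCC5. ERCC4 fell short of the fold minimum after median centring (0.58) and quantile normalization (0.55), and FANCI after median centring (0.58). XPA lost its adjusted p after quantile normalization (0.0565), PARP1 in a fit of the axis and control arrays alone (0.0812), and XRCC5 in that fit (0.0922), after median centring (0.0652), quantile (0.0972) and cyclic loess normalization (0.105). With the replicate number as a block, 7 genes were higher and 1 lower in the axis and 6 higher against the peripheral locations. XRCC5 lost its adjusted p there (0.0521), though the numbers were not taken as pairs in the main fit. With 3 arrays a group, a standard error near 0.085 leaves small shifts undetectable.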
